A study of Mus musculus with 6 samples.

Results

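Bdh1, Acat1, Oxct1 and Slc16a1, which encode 3 enzymes and a carrier of ketone bodies, were followed in the livers of mice after vertical sleeve gastrectomy (VSG, removal of most of the stomach) or a sham operation. The 4 genes were taken by name out of the 55385 genes of the count table. All were found there, and all had enough counts to be tested. The libraries came from the livers of 6 male mice, wild-type C57BL/6 per the study's methods, whose age is given as 6 to 8 weeks for the start of a high-fat diet (HFD). They ate it for 10 weeks, then had either operation, and stayed on HFD for 12 weeks more. Poly(A) RNA was sequenced from 3 sham livers (replicates 1 to 3) and 3 VSG livers (replicates 4 to 6), 1 library each, so that all 6 mice shared the diet and only the operation differed by label. The comparison asked how the operation was followed by changes in liver gene expression.

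Ketone bodies are made in liver mitochondria from the acetyl-CoA that fatty acid oxidation yields. ACAT1 is a thiolase that joins acetyl-CoA units to acetoacetyl-CoA. Further steps lead to acetoacetate, and BDH1 reduces acetoacetate to beta-hydroxybutyrate. SLC16A1 (MCT1) is a proton-coupled monocarboxylate carrier of the cell membrane that moves lactate, pyruvate and ketone bodies and needs the partner protein basigin. OXCT1 activates acetoacetate for burning in other tissues and is known for its near absence from hepatocytes, so that the liver makes ketone bodies and hardly uses them. The thiolase and BDH1 steps are reversible, and ACAT1 also ends the breakdown of isoleucine.

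Total counts ran from 22804397 to 24191778 per library. With edgeR, 14.7% of the 14454 genes tested passed an adjusted p of 0.05, 1137 as lower (7.87%) and 981 as higher (6.79%) after VSG. Scaled by total counts instead of TMM factors, the split was 1512 lower and 486 higher. Sham and VSG libraries were fully separated in 39.7% of tested genes, and VSG lay below sham in 19.8%. The removal of single libraries moved the number of genes past the threshold from 2118 to between 159 and 2732. Of the markers fixed for 11 cell types, all 9 of neutrophils and 3 of 8 of macrophages were higher after VSG, as were 1 of 4 of bile duct and 1 of 3 tested of B and plasma cells. The bile duct marker called was Sox9 (log2 fold change 1.77), and the other three had log2 fold changes from -1.20 to -0.76. Among stellate cell markers 1 of 5 was lower, while all 5 were lower at an unadjusted p under 0.05 and with DESeq2. No marker passed among 5 of hepatocytes (1 at an unadjusted p under 0.05, 1 with DESeq2), 5 of sinusoidal endothelium (0 and 0), 4 of T cells (1 and 0) and 4 of erythroid cells (1 and 1). Markers of adipocytes and muscle were too low to be tested, summing to at most 0.114 and 0.148 CPM (counts scaled to library size with TMM factors) in any library. The hepatocyte markers, which include albumin, summed to between 43930 and 95470 CPM, so the labelled tissue was found in all 6 libraries.

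In GRCm38 (mm10), Bdh1 (ENSMUSG00000046598.15) is a plus-strand gene of chromosome 16, from 31422280 to 31458901, with 11 merged exon blocks of 3888 bases in sum. Acat1 (ENSMUSG00000032047.5) is a minus-strand gene of chromosome 9, from 53580522 to 53610382, with 12 blocks. Oxct1 (ENSMUSG00000022186.14) spans chromosome 15 from 4026383 to 4155344 on the plus strand, with 20 blocks. Slc16a1 (ENSMUSG00000032902.1) is a plus-strand gene of chromosome 3, from 104638668 to 104658462, with 5 blocks. Exons of Bdh1 shared 533 bases with Gm15743 on the other strand, and those of Oxct1 shared 467 bases with BC037032. These antisense genes had at most 1 and 3 counts in any library. No other gene overlapped the exons of the 4.

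The promoter is shown for Bdh1, the gene of the 4 that passed the test, and for Slc16a1, whose level went the other way without passing. RefSeq (GRCm38.p6) gave windows before the transcription start for 3 of the 4 genes, with 2 starts for Bdh1. The lines give, 5′ to 3′ on the plus strand, 233 bases before the first start of Bdh1 (chr16:31422047-31422279) and 250 bases before that of Slc16a1 (chr3:104638414-104638663), in both cases outside annotated exons. Capitals mark the matches to 5 motifs searched on both strands, which were AGGTCA (nuclear receptor core), CACGTG (E-box), TGTTTAC (forkhead core), TGACG (core of the cAMP response element) and GGGCGG (GC box).
Bdh1: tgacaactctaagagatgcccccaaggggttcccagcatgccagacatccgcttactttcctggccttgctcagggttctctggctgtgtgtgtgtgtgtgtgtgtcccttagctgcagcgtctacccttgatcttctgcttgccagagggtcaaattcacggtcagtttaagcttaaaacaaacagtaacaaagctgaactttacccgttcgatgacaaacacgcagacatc
Slc16a1: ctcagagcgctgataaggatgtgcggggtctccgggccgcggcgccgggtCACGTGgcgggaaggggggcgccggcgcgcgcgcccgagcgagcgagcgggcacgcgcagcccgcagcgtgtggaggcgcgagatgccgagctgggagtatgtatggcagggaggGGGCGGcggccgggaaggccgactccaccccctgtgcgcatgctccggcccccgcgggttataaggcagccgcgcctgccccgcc
The Slc16a1 window held 1 CACGTG and 1 GGGCGG, and the Bdh1 window held no match to these letters. Over all 32851 windows of 250 bases, 6.02% held CACGTG, 32.7% GGGCGG, 17.8% TGACG, 14.0% AGGTCA and 3.17% TGTTTAC. The stretches differed in composition, with 76.4% G and C and 37 CpG pairs for Slc16a1 against 49.8% and 6 for Bdh1. A match describes the letters only, and no factor was measured here.

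Bdh1 was the gene of the 4 that passed the threshold as lower after VSG, at 0.483 of its sham level. It stood at 308, 372 and 374 CPM in sham replicates 1, 2 and 3 and at 116, 199.5 and 193.5 CPM in VSG replicates 4, 5 and 6. The groups did not overlap, and the lowest library was VSG replicate 4. The group means were 351 ± 37.5 CPM (SD, n = 3) for sham against 169.5 ± 46.8 CPM after VSG. This is a log2 fold change of -1.05 (SE 0.229), with an edgeR adjusted p of 0.0308 over all genes, against the 7.87% of tested genes that were called lower. The call was lost without sham replicate 1 (adjusted p 0.0541), sham replicate 2 (0.0822), sham replicate 3 (0.122) or VSG replicate 6 (0.0876). The log2 fold change ran from -1.20 to -0.84 when single libraries were left out. VSG replicate 4 was also the lowest VSG library in 36.1% of all genes tested. The 5 hepatocyte markers summed to 60390, 95470 and 62070 CPM in the sham group and to 43930, 69270 and 67470 CPM in the VSG group, lowest in VSG replicate 4 as well. The 5 stellate cell markers, at 839, 584 and 884 CPM against 276, 545 and 327 CPM, shared that order of the VSG libraries. Bulk tissue does not tell apart fewer cells of a type from less RNA per cell, and the part of these cells in the level of Bdh1 was not tested.

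**Figure D1:**
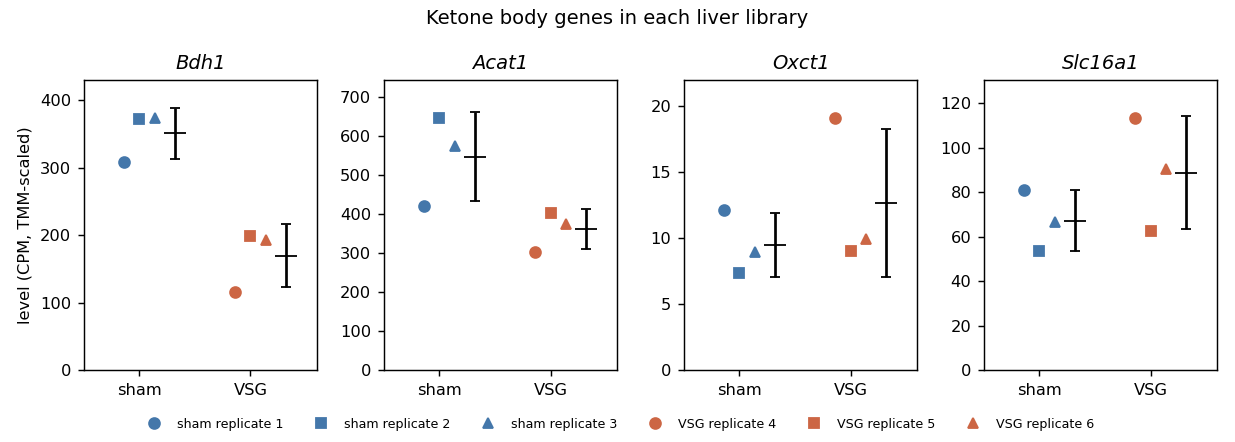
Levels of Bdh1, Acat1, Oxct1 and Slc16a1 in CPM (linear axes from 0), 1 point per library, with the mean and SD of each group of 3 in black. Bdh1 and Acat1 are lower in every VSG library than in any sham library, while the groups overlap for Oxct1 and Slc16a1, where VSG replicate 4 is the highest.

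The difference in Acat1 was smaller than that in Bdh1 and did not pass the threshold. Its level was 421, 646 and 572.5 CPM in the sham libraries and 304, 403 and 375 CPM in the VSG libraries. The groups did not overlap, but the lowest sham library and the highest VSG library differed by little. The group means were 546 ± 115 CPM and 361 ± 51.2 CPM, a log2 fold change of -0.60 (SE 0.204, adjusted p 0.0924). With DESeq2 (adjusted p 0.0328) and with total counts in place of TMM factors (0.0364) Acat1 passed. It passed in none of the 6 fits that left out 1 library, with adjusted p-values from 0.0639 to 0.243. In these the log2 fold change ran from -0.76 to -0.47.

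Oxct1, the enzyme of ketone body use, had the lowest level of the 4 genes and showed no difference beyond the spread between libraries. It was at 12.2, 7.40 and 8.97 CPM in the sham libraries and at 19.1, 9.02 and 9.92 CPM in the VSG libraries. The high value was that of VSG replicate 4, and the other two VSG libraries lay within the sham range. The log2 fold change of 0.42 (SE 0.330, adjusted p 0.404) was -0.0065 without that library.

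Slc16a1 was at 81.2, 53.8 and 66.9 CPM in the sham libraries and at 113.5, 62.6 and 90.5 CPM in the VSG libraries. VSG replicates 4 and 6 lay above all sham libraries, and VSG replicate 5 lay among them. The means of 67.3 ± 13.7 CPM and 88.9 ± 25.5 CPM gave a log2 fold change of 0.40 (SE 0.244), which did not pass (adjusted p 0.284). The value was 0.19 without VSG replicate 4. It was 0.58 when VSG replicate 5 was left out and 0.26 when sham replicate 2 was.

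Of the 4 genes, 1 passed the threshold as lower (against 7.87% of all genes tested) and none as higher (against 6.79%) with edgeR. At an unadjusted p under 0.05 there were 2 lower and 0 higher, where 17.0% of all genes tested were lower and 16.9% higher. DESeq2 called 2 lower and 0 higher, where it called 9.98% of its 17381 genes lower and 8.73% higher. Bdh1 and Acat1 were 2 of 4 genes whose groups did not overlap, both lower after VSG, against 19.8% of all genes tested.

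Markers of some other cell types had the order of libraries that Oxct1 and Slc16a1 had. The 8 macrophage markers together were at 528, 223 and 325 CPM in sham replicates 1, 2 and 3 and at 1525, 555 and 963 CPM in VSG replicates 4, 5 and 6. Of these sums, Marco alone made up 26.7, 6.30 and 3.91 CPM in sham and 688, 101 and 366 CPM in VSG livers. Trem2 (log2 fold change -1.40), Gpnmb (-0.59) and Cd68 (0.13) of the same list did not pass. Within each group the order of the sums is the order of the libraries for Slc16a1 and for Oxct1 too. Of the single macrophage markers, Cd68, Trem2 and Gpnmb did not have that order in VSG livers, nor Marco in sham livers. The share of all genes with that order was not counted. The 9 neutrophil markers summed to 14.2, 2.56 and 4.45 CPM in sham and to 1803, 146 and 830 CPM in VSG livers, again in that order. No marker of either list was at 0 in all libraries. The 5 endothelial markers summed to between 223.5 and 271 CPM in sham and between 225.5 and 283 CPM in VSG livers. The part of these cells in the levels of Oxct1 and Slc16a1 was not tested.

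**Figure D2:**
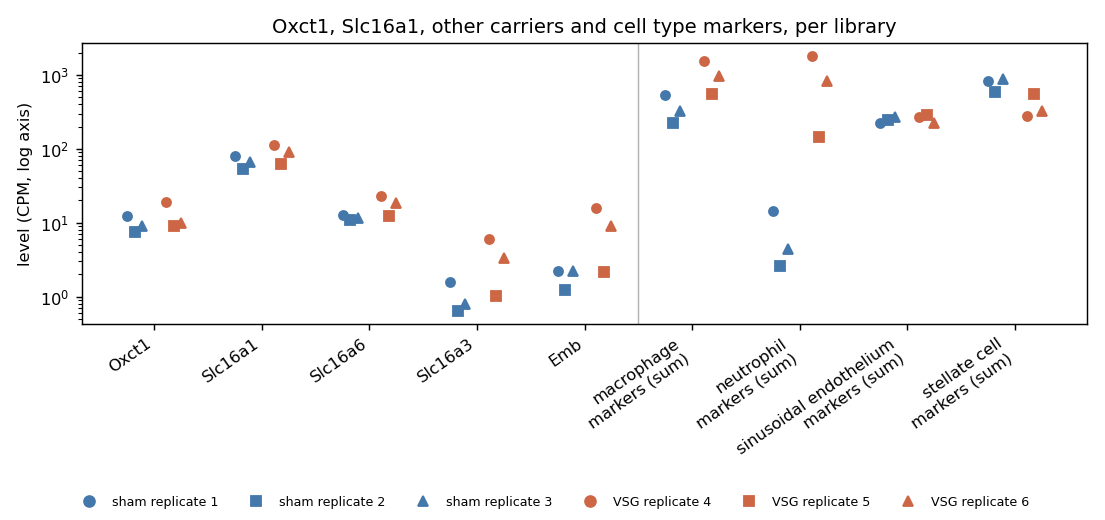
Levels of Oxct1, Slc16a1, 3 related carrier genes and the summed markers of 4 cell types in CPM (log axis), 1 point per library. VSG replicate 4 (circle) is the highest of all 6 libraries for Oxct1, Slc16a1, Slc16a6, Slc16a3, Emb and the macrophage and neutrophil sums, and is not so for the endothelial and stellate cell sums.

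Per length, in FPKM (CPM divided by the exon length in kilobases), the levels kept the order Acat1, Bdh1, Slc16a1 and Oxct1 in all 6 libraries. In sham livers the FPKM means were 145 ± 30.5, 90.4 ± 9.65, 15.2 ± 3.10 and 2.57 ± 0.654. In VSG livers they were 96.0 ± 13.6, 43.6 ± 12.0, 20.1 ± 5.76 and 3.43 ± 1.51. Within each group no neighbours in this order overlapped, although Bdh1 and Slc16a1 came close in VSG replicate 4, at 29.7 and 25.6 FPKM.

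Ratios of levels per length within a library do not depend on how libraries are scaled. Slc16a1 over Bdh1 took the values 0.232, 0.127 and 0.157 for sham, against 0.862, 0.276 and 0.411 for VSG replicates 4, 5 and 6. The ratio was thus higher in each VSG library than in any sham library. An exact two-sided permutation test of its logarithm gave p = 0.1, the smallest that 3 libraries against 3 allow. Bdh1 over Acat1 was 0.707, 0.557 and 0.632 in sham and 0.368, 0.478 and 0.499 in VSG livers, without overlap (exact permutation p = 0.1). The ratio of Slc16a1 to Oxct1 averaged 5.97 ± 0.337 in sham and 6.13 ± 1.37 in VSG livers and overlapped (exact permutation p = 1.0). Bdh1 over Oxct1 averaged 37.2 ± 12.0 in sham and 15.1 ± 8.21 in VSG livers, without overlap (exact permutation p = 0.1). Acat1 over Oxct1 averaged 61.0 ± 26.0 and 32.3 ± 14.8 and overlapped (exact permutation p = 0.3). In all, 6 such ratios were computed, and the design does not allow any adjusted p under 0.1.

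**Figure D3:**
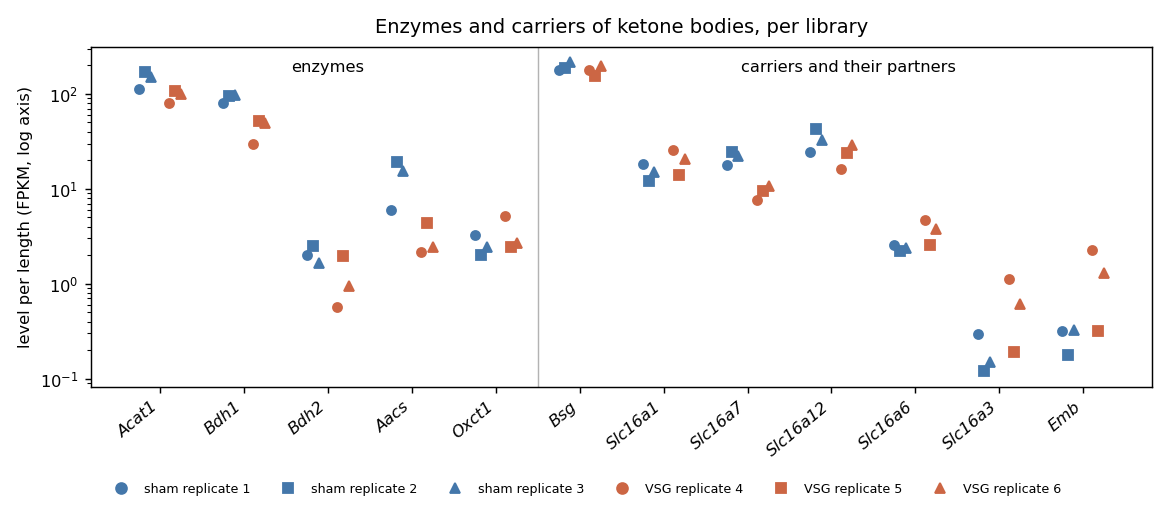
Levels per length in FPKM (log axis) of 5 enzymes of ketone bodies and 7 Slc16 carriers or partner proteins, 1 point per library. Slc16a3 and Emb are the lowest in sham livers, and the sham and VSG points of Bdh1, Acat1, Aacs and Slc16a7 do not overlap.

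Of 6 other enzymes of ketone bodies on the list, 4 were tested, all with negative log2 fold changes, and 1 passed as lower (against 7.87% of all genes tested). At an unadjusted p under 0.05 there were 3 lower (against 17.0% of all genes), and with DESeq2 2 (against 9.98% of all genes). Aacs, a cytosolic synthetase that activates acetoacetate for lipid synthesis, went from 23.1, 74.7 and 58.9 CPM in the sham group to 8.33, 17.0 and 9.45 CPM in the VSG group, a log2 fold change of -2.17 (SE 0.474, adjusted p 0.0310). The groups did not overlap, and sham replicate 1 was the lowest of its group. Bdh2 (log2 fold change -0.83), Acat2 (-0.66) and Acat3 (-0.39) did not pass, with adjusted p-values from 0.0715 to 0.2145. Acat3 passed with DESeq2 (adjusted p 0.0185), and Acat2 passed with total counts (0.0268) and when sham replicate 1 was left out (0.0474). Bdh2 passed at -1.46 when VSG replicate 5 was left out (0.0252), a fit in which 18.4% of all genes tested passed. Without VSG replicate 4 it was at -0.51 (adjusted p 0.3675). Acat3, Acat2 and Bdh2 passed in no other of the 12 alternative fits, with adjusted p-values up to 0.198, 0.234 and 0.416. Acat3 shares 571 exon bases with Tcp1 on the other strand, and Acat2 and Acat3 are known as close paralogs. Reads shared between them were not measured here. No count of Oxct2a was found (a limit of 3 counts per library), and Oxct2b had at most 3. Aacs lost the call when sham replicate 2, sham replicate 3, VSG replicate 4 or VSG replicate 6 was left out, and its highest adjusted p was then 0.117.

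Among the other carriers and their partners, Slc16a7 fell. This gene encodes MCT2, a monocarboxylate carrier of high affinity. Its level was 212, 288 and 262 CPM in the sham libraries and 89.8, 112 and 126 CPM in the VSG libraries. Every VSG library lay far below the sham range (log2 fold change -1.22, SE 0.1775, adjusted p 0.0126), although the adjusted p was 0.0675 without sham replicate 3 and 0.0520 without VSG replicate 6. The ratio of Slc16a1 to Slc16a7 per length was 0.736 ± 0.266 in sham and 2.265 ± 0.989 in VSG livers, without overlap (exact permutation p = 0.1). Slc16a6 (MCT7), known as a liver exporter of beta-hydroxybutyrate, was at 12.6, 10.9 and 11.7 CPM in sham and at 23.1, 12.4 and 18.5 CPM in VSG livers. Only VSG replicate 5 lay within the sham range, and the log2 fold change was 0.61, with an SE of 0.224 (adjusted p 0.1085). It passed when that library was left out (adjusted p 0.0193) and in no other of the 12 alternative fits. Without VSG replicate 4 its log2 fold change was 0.39 (adjusted p 0.237). Slc16a6 shares 1100 exon bases with Amz2 and Arsg on the other strand. Bsg, which encodes basigin, had group means of 350.5 ± 34.1 CPM for sham against 321 ± 40.6 CPM for VSG (log2 fold change -0.13, SE 0.149, adjusted p 0.573). For Slc16a3 (MCT4) the log2 fold change was 1.74 (SE 0.656, adjusted p 0.116). For Emb (embigin, a partner of MCT carriers) it was 2.23 (SE 0.671, adjusted p 0.0689). Emb was at 2.22, 1.23 and 2.24 CPM in sham and at 15.75, 2.18 and 8.92 CPM in VSG livers, so that VSG replicates 4 and 6 carried the difference. These are also the libraries with the highest neutrophil and macrophage sums given above. With DESeq2 the adjusted p was 0.0450 for Slc16a3 and 0.00418 for Emb, and without VSG replicate 5 it was 0.0272 and 0.00931. Without VSG replicate 4 the log2 fold changes were 1.08 (adjusted p 0.289) and 1.54 (0.152), and with limma-voom the adjusted p was 0.222 and 0.202. The part of those cells was not tested. Slc16a11 (log2 fold change -1.004), Slc16a12 (-0.55) and Slc16a13 (-1.18) did not pass, with adjusted p-values from 0.0844 to 0.203. With DESeq2, Slc16a11 (adjusted p 0.0423) and Slc16a13 (0.0350) passed, and Slc16a13 also passed when sham replicate 1 was left out (0.0434). Neither passed in any other of the 12 alternative fits, with adjusted p-values up to 0.245 and 0.209. Slc16a8 had no count, and Slc5a8 had at most 4.

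Fatty acid entry into mitochondria and beta-oxidation supply the acetyl-CoA for ketone bodies. All 17 genes of that list had negative log2 fold changes (median -0.60, against 0.03 over all genes tested), and 5 passed as lower (29.4%, against 7.87% of all genes tested). At an unadjusted p under 0.05 there were 12 lower (against 17.0% of all genes), and with DESeq2 10 (against 9.98% of all genes). The 5 were Cpt1a (the entry step), Cpt2, Acads (short-chain acyl-CoA dehydrogenase), Hadh and Eci1. Hadh fell from 561 ± 116 CPM in the sham group to 255 ± 62.2 CPM, with a log2 fold change of -1.14 (SE 0.244) and an adjusted p of 0.0301. Eci1 fell from 141 ± 34.5 CPM to 60.0 ± 23.0 CPM, with a log2 fold change of -1.23 (SE 0.310) and an adjusted p of 0.0434. The log2 fold changes of Cpt1a, Cpt2 and Acads were -0.93, -0.82 and -0.77, with adjusted p-values of 0.0356, 0.0437 and 0.0260. In 16 of the 17 genes VSG replicate 4 was the lowest and VSG replicate 5 the highest of the VSG libraries, an order found in 22.2% of all genes tested. Bdh1 and Acat1 had the same order.

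Of 10 regulators, 3 passed as lower (against 7.87% of all genes tested), with 6 lower at an unadjusted p under 0.05 (against 17.0% of all genes) and 4 with DESeq2 (against 9.98% of all genes). Pdk4, a kinase that shuts pyruvate dehydrogenase when fat is burned, went from 19.5, 40.1 and 18.8 CPM to 4.615, 6.88 and 4.58 CPM (log2 fold change -2.28, SE 0.350, adjusted p 0.0142). Acacb, whose malonyl-CoA holds back CPT1, went from 56.0, 79.3 and 59.5 CPM to 13.1, 13.4 and 14.0 CPM, with the VSG libraries within 1 CPM of each other (log2 fold change -2.27, SE 0.152, adjusted p 0.00177). Ppargc1a, a coactivator of oxidative genes, had a log2 fold change of -0.79 (SE 0.186, adjusted p 0.0371). Ppara, the fatty acid receptor that drives ketogenic genes in fasting, had group means of 250 ± 53.8 CPM for sham against 148 ± 68.9 CPM for VSG. With a log2 fold change of -0.76 and an SE of 0.389, it missed the threshold (adjusted p 0.217). Fgf21, a hormone of fasting and a known PPAR alpha target, was at 7.74 ± 0.608 and 6.75 ± 5.77 CPM (log2 fold change -0.20, adjusted p 0.8505), and its sign turned without VSG replicate 6 (0.28).

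Leucine, isoleucine and tyrosine are broken down to acetyl-CoA or acetoacetate. Of 16 genes of these routes 1 passed as lower (6.25%, against 7.87% of all genes tested), and 8 were lower at an unadjusted p under 0.05 (against 17.0% of all genes) and 6 with DESeq2 (against 9.98% of all genes). In the other direction 1 was higher at an unadjusted p under 0.05 (against 16.9% of all genes). It was Bcat2 (log2 fold change 0.47, adjusted p 0.104), an aminotransferase of branched-chain amino acids. The gene that passed was Mccc1 of leucine breakdown, with a log2 fold change of -0.42 (SE 0.0977, adjusted p 0.0361). Hsd17b10, which acts just before ACAT1 in isoleucine breakdown, had a log2 fold change of -0.94 and missed the threshold (adjusted p 0.0519). It passed with total counts (0.0186), with DESeq2 (0.0070), without a low-count filter (0.0237) and when sham replicate 1 was left out (0.0383). In the other alternative fits it did not pass (adjusted p up to 0.160). Of the remaining 5 genes 4 were tested, and 1 passed as lower (against 7.87% of all genes tested). At an unadjusted p under 0.05 there were 2 lower (against 17.0% of all genes), and with DESeq2 1 (against 9.98% of all genes). The gene that passed was Cs (citrate synthase, the competing use of acetyl-CoA). It was at 93.5 ± 2.94 CPM after VSG against 153 ± 9.42 CPM in sham livers (log2 fold change -0.71, SE 0.0983, adjusted p 0.0111). Hcar2, a receptor for beta-hydroxybutyrate, was at 1.92 ± 0.782 and 1.13 ± 0.514 CPM and did not pass (adjusted p 0.254). Ffar3 had no count.

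Over these 64 other genes together, 59 were tested and 12 passed, all of them as lower (20.3%, against 7.87% of all genes tested called lower). None passed as higher with edgeR, while at an unadjusted p under 0.05 there were 34 lower and 4 higher (against 17.0% and 16.9% of all genes). With DESeq2 there were 26 lower and 2 higher (against 9.98% and 8.73% of all genes). The median log2 fold change of the 59 was -0.54, and 51 were negative. All 12 passed with DESeq2, limma-voom, both other scalings and both other filters. Without sham replicate 3 or without VSG replicate 6 only Acacb of the 12 passed, where 1.07% and 1.42% of all genes tested passed. Without sham replicate 2 or VSG replicate 4 there were 4 of the 12 (against 5.34% and 7.32% of all genes). Without sham replicate 1 there were 8 of the 12 (against 8.2% of all genes).

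**Figure D4:**
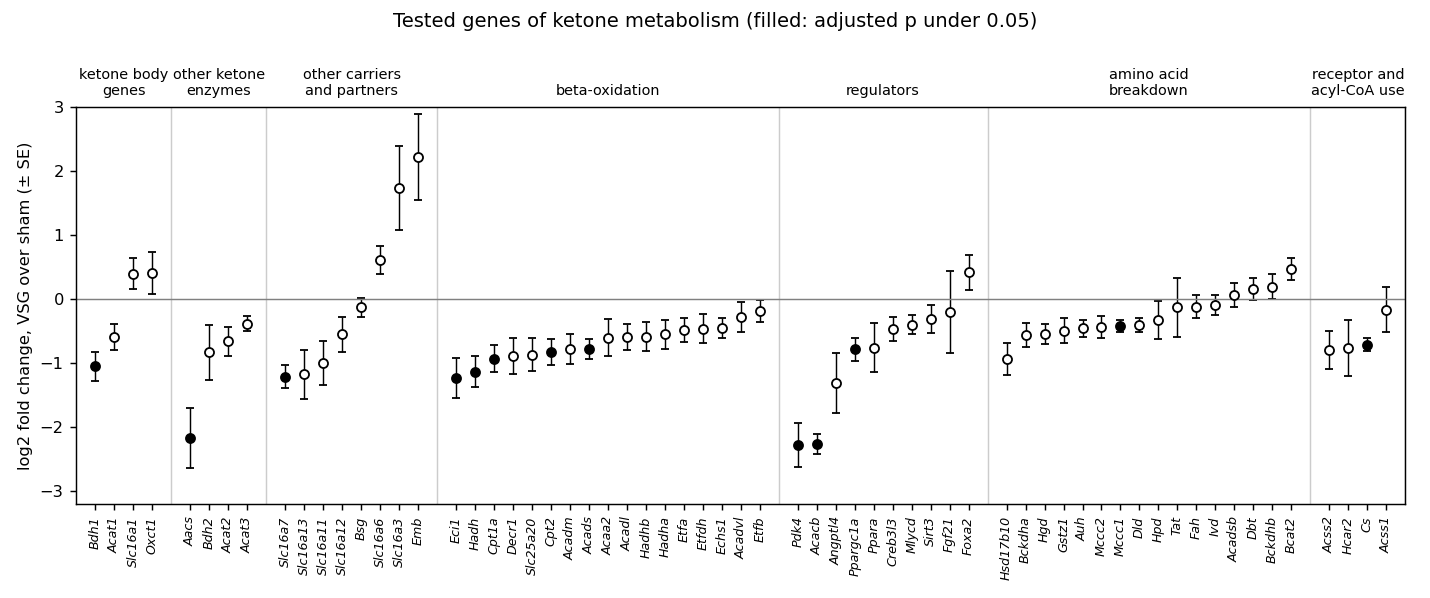
Log2 fold changes (VSG over sham, points) with their SE (bars) of the 4 ketone body genes and the 59 other tested genes, grouped by role, with filled points for an adjusted p under 0.05. Bdh1 and 12 other genes are filled, and all of these lie below 0.

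The genes with the most similar profiles were sought among 9740 protein-coding genes with a mean of at least 5 CPM. Likeness was the root mean square difference of log2 CPM over the 6 libraries, each gene centred on its own mean. Bdh1 was nearest to Acy3 (0.0854), Acot13 (0.0877) and Lrp4 (0.0888), where its own root mean square deviation from its mean was 0.608. Acat1 was nearest to Tango2 (0.0252), Atp5c1 (0.0548) and Prdx6 (0.0560), with 0.367 of its own. Oxct1 was nearest to Abi3 (0.0581), Cenpa (0.0692) and Acvrl1 (0.0876), with 0.436. Slc16a1 was nearest to Capza1 (0.0562), Tmem263 (0.0603) and Tpd52 (0.0746), with 0.358. With 6 libraries many genes share a profile, and these values are a description only.

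**Figure D5:**
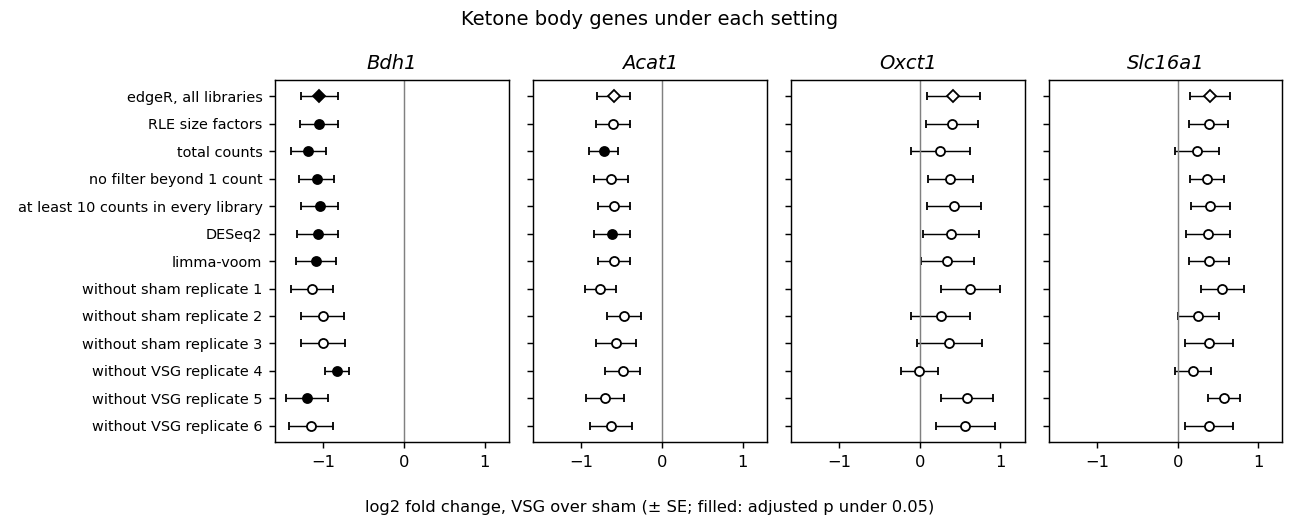
Log2 fold changes (VSG over sham) with SE of the 4 genes under 13 settings, filled where the adjusted p is under 0.05 (the diamond is edgeR with all libraries). Bdh1 and Acat1 stay negative and Slc16a1 positive in all 13, while Oxct1 reaches -0.0065 without VSG replicate 4.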

How the data were processed

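Poly(A) RNA of 3 sham and 3 VSG livers was sequenced, 1 mouse per library. The authors deposited raw counts of reads for each gene. Per the submitters' notes, the authors checked reads with FastQC 0.10.1, aligned strand-specific libraries to mm10 with STAR 2.6.0 and counted with featureCounts. The strand option and the treatment of shared reads are not given in the sources used here. The deposited gene length, in bases, served only for FPKM. Symbols came from GENCODE M21, which matched 55144 of 55385 genes without the version.

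Low genes were removed with filterByExpr (10 counts, 15 in total), and the rest tested with edgeR 4.0.16 (glmQLFit, glmQLFTest, group as the only term, TMM factors 0.897 to 1.15) in R 4.3.3, with Benjamini-Hochberg adjustment over the 14454 genes tested. SE is the log2 fold change divided by the square root of F. The fits were tested on simulated data with the same spread for every gene and changes only in well-counted genes. That test does not show how the fits do at the spread of these replicates. Alternatives were DESeq2 1.42.0, limma-voom (limma 3.58.1), RLE factors, total counts, 2 other filters and leaving out each library. Replicates of a group differed by more than counting noise (chi-square per degree of freedom at least 27.5). Limits of 3 counts cover counting error only. The genes and lists were chosen with earlier results of these data known. Some listed genes are not reported here and were left out of the counts. Named genes were the 4 with the 3 nearest profiles of each, the listed genes that passed, and the listed ketone body enzymes and monocarboxylate carriers. Other genes given with values (Ppara, Fgf21, Hsd17b10, Bcat2, Hcar2 and Bsg) were listed too but named after their values were seen. So were Acadsb, Ivd, Tat, Hpd, Fah and Acss1, named because their signs turned under an alternative. The single marker genes Sox9, Marco, Trem2, Gpnmb, Cd68, Alb, Ttr, Apoa1, Cps1 and Hnf4a were also named after their values were seen.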

Additional observations from a re-analysis of the deposited data

How the results depend on the processing

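No paired analysis was possible because each library came from a different mouse and the labels pair no sham mouse with a VSG mouse. With total counts in place of TMM factors, the median log2 fold change over all genes was -0.11 against 0.03. Then 2 of the 4 ketone body genes and 22 of the other pathway genes passed, all as lower. Over all genes 1998 passed (13.8%), 1512 of them as lower. Acat1 passed at -0.72. With DESeq2, 2 and 28 passed, with 3252 genes in all (18.7%) and Acat1 at -0.62. Leaving out 1 library gave 0 to 1 of the 4 genes, 1 to 24 of the pathway genes and 159 to 2732 of all genes. In these fits Bdh1 ran from -1.20 to -0.84 and lost its call in 4 of 6, Acat1 from -0.76 to -0.47, Oxct1 from -0.0065 to 0.62 and Slc16a1 from 0.19 to 0.58. Without a low-count filter, 1 pathway gene (Emb) passed as higher. Signs turned for Fgf21 (-1.05 to 0.28 over the fits without 1 library), Acadsb (-0.0705 to 0.21, and -0.058 with total counts), Ivd (-0.19 to 0.0573), Tat (-0.42 to 0.63, and 0.0661 with limma-voom), Hpd (-0.52 to 6e-04), Fah (-0.22 to 0.0278) and Acss1 (-0.42 to 0.14), none of which had passed. The cause was not tested, apart from fewer libraries. Apart from those named, all fits of the 4 genes kept their direction and their side of the threshold.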
